A study of Mus musculus with 4 samples.

Results

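The nuclear genes of mitochondrial complex I carry mouse symbols that begin with Nduf. Every such symbol in the table, those holding -ps left out, was taken as a member. The rule found 45 of the 41324 genes listed: 7 begin with Ndufaf and encode assembly factors, and 38 encode subunits or, for Ndufa4 and Ndufa4l2, proteins once counted among them. Ndufb1 and Ndufaf8 were not analysed here. The cells were RAW264.7, an established mouse macrophage line, and the aim of the course was to estimate how long each mRNA lasts once transcription is stopped. The untreated group is the 0 h point of the course and had no drug, and the other groups had 10 µg/ml actinomycin D, which binds DNA and blocks RNA synthesis, for 2, 4 or 6 h. Each group was 1 library of RNA that the labels call cytoplasmic, depleted of ribosomal RNA and prepared with a strand-keeping kit. The extraction protocol names a general RNA kit and no step that separates the cytoplasm, so which RNA pool was sequenced is not settled. All cells were of 1 line without any genetic change named in the labels, so the values describe that line.

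Complex I is the first enzyme of the respiratory chain. It takes electrons from NADH in its matrix arm, passes them along iron-sulphur clusters to quinone, and pumps protons through its membrane arm. The core subunits of the matrix arm do the electron transfer and are encoded in the nucleus, the core subunits of the membrane arm are encoded in mitochondrial DNA as the mt-Nd genes, and the accessory subunits surround both arms. Assembly factors bind intermediates while the arms are built and are not part of the finished enzyme. In macrophages, complex I is also known as a source of reactive oxygen during inflammatory activation.

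Gene counts totalled 35669434, 38260540, 70289647 and 12762100 at 0, 2, 4 and 6 h. The members together held 66411, 111502, 205497 and 31897 counts in that order, which was 0.186%, 0.291%, 0.292% and 0.25% of each library. Of 10 macrophage markers 9 were at 1 CPM or more, with a summed level of 3995, 4312, 4791 and 5366 CPM, while none of 12 markers of fibroblasts, epithelium, endothelium, lymphocytes and hepatocytes reached 1 CPM and 9 of them were at 0 in every library. CPM are counts scaled to a common library size by TMM, a method that sets the typical gene to no change. The part of the rising marker sum in the member results was not tested. All levels below are therefore relative to the typical mRNA of the same library and are not amounts per cell. In these bulk samples, fewer cells and less RNA per cell cannot be told apart. Nothing in the labels tells if separate cultures were used for the 4 times. With 1 library per time the p-values measure only the spread of the 4 libraries around a line or curve. The fit estimates that spread for each gene partly from the other genes tested.

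Relative to the typical mRNA, 34 of the 37 tested members other than assembly factors lay above their untreated level at 6 h, against 50.6% of all genes. Of the 7 assembly factors 5 lay below it, against 5358 of the 10837 genes tested. The median change of all members at 6 h was 0.22 on the log2 scale, 0.39 with total counts and 0.14 with total counts less 4 abundant genes. It was −0.13 with scaling on ribosomal protein mRNAs and −0.30 with the deposited divisors, so the gain is one relative to other genes. Of the 45 members 44 passed a mean of 1 CPM, and a slope in log2 per h was fitted to each with edgeR's quasi-likelihood test. No member rose (0 of 44, against 8.03% of the 10837 genes tested) and 1 member fell, Ndufaf4 (1 of 44, against 16.8% of all genes). At an unadjusted p under 0.05, 9 members had a slope above 0, against 20.3% of all genes, and 1 had one below 0, against 26.6%. DESeq2's Wald test called 8 rises and 1 fall, against 14.1% and 20% of all genes. Without the 6 h library 10 members rose, against 11.6% of all genes, and without the 2 h library 2 did (Ndufb6 and Ndufa4), against 4.02% (edgeR). Without the untreated library Ndufaf6 fell beside Ndufaf4, against 14.9% of all genes. The slope was above 0 in 36 of 44 members, against 50.5% of all genes, with a median of 0.036 log2 per h and a range of −0.11 to 0.099. The median over all genes was 0.0014.

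Most of the gain was present at 2 h. The median change of the members from untreated was 0.22 on the log2 scale at 2 h, 0.28 at 4 h and 0.22 at 6 h, beside 0.010, 0.015 and 0.010 over all genes. At 2 h 40 of 44 members lay above their untreated level, against 51% of all genes, and at 6 h 36 did, against 50.6%. The quadratic time term was below 0 with an adjusted p under 0.05 (edgeR, Benjamini-Hochberg) in 21 members, against 10.7% of all genes, and above 0 in 0 members, against 18%. A term below 0 means a gain that slowed or turned, or a loss that set in or quickened, as in Ndufaf6. The count of bends in either direction was 20 with DESeq2 size factors, against 28.6% of all genes, and 19 with total counts less 4 abundant structural RNA genes, against 26.2%. It was 37 with total counts, against 50.3%, 2 with ribosomal protein scaling, against 31.9%, and 1 with the deposited divisors, against 29.4%.

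**Figure D1:**
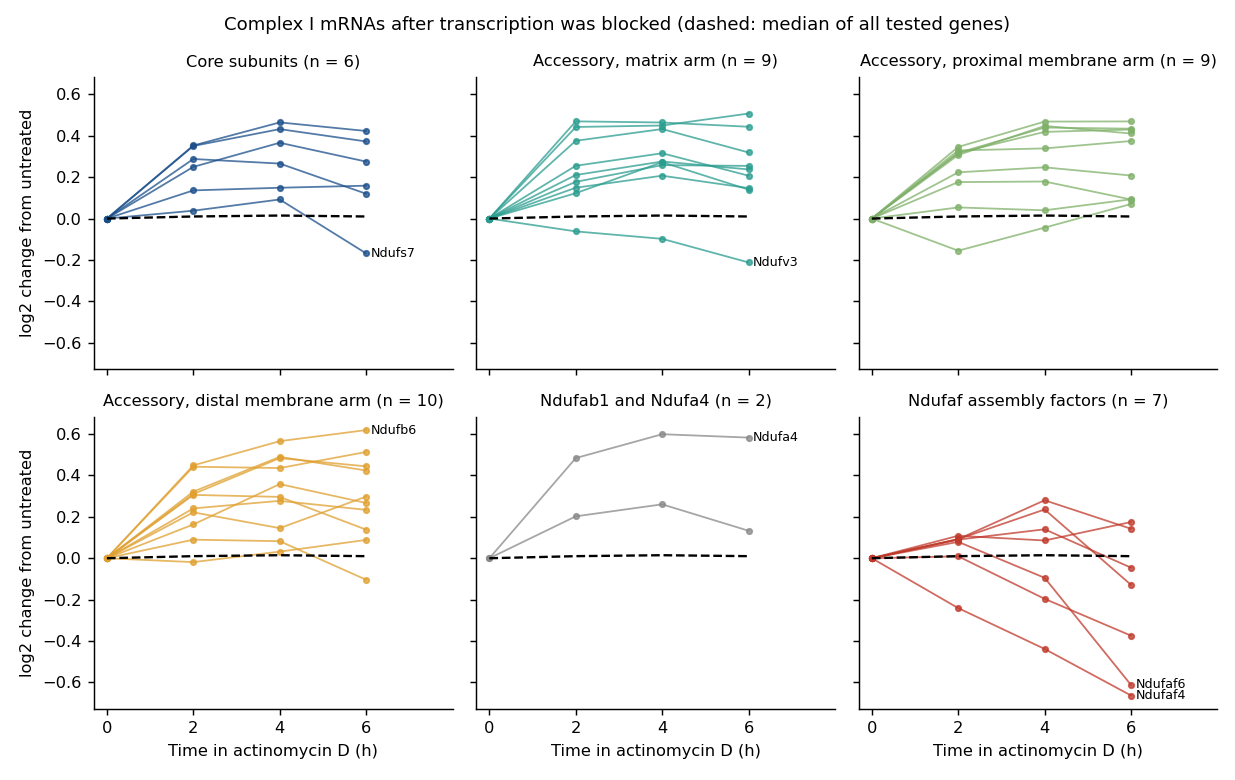
Log2 change from the untreated library (y axis) against hours in actinomycin D (x axis), 1 line per gene (43 of the 44 tested) and 1 panel per role, with the median of all 10837 tested genes dashed. Most subunits sit between 0 and 0.62 at 6 h, while Ndufaf4 ends at −0.66 and Ndufaf6 at −0.61.

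The core subunits of the N module, which binds NADH, had like courses. Ndufs1, the largest of them and a carrier of several iron-sulphur clusters, was at 142 CPM untreated and at 182, 197 and 191 CPM after 2, 4 and 6 h. Ndufv1, which holds the flavin that accepts electrons from NADH, was at 97.4, 116, 126 and 118 CPM, and Ndufv2, its iron-sulphur partner, at 84.1, 107, 113 and 109 CPM. In each of these 3 genes every treated library was above the untreated one and the 4 h library was the highest. At 6 h Ndufs1 stood at 134% of untreated (95% interval 127 to 141), Ndufv2 at 129% (121 to 138) and Ndufv1 at 121% (114 to 129). These intervals are exact and cover counting error only. No slope among them passed the test, with adjusted p of 0.0949 for Ndufs1, 0.135 for Ndufv2 and 0.156 for Ndufv1 (edgeR, Benjamini-Hochberg). The downward bend passed in all 3, against 10.7% of all genes.

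The core subunits of the Q module, where quinone is reduced, were less alike. Ndufs8, a carrier of iron-sulphur clusters, was at 72.0, 79.1, 79.8 and 80.4 CPM, and Ndufs3, a structural subunit without a cluster, was at 33.8, 41.3, 40.7 and 36.7 CPM. Ndufs7 holds the last cluster of the chain. It was at 87.3, 89.6, 93.1 and 77.7 CPM, so its 6 h library was the lowest of the 4 while those at 2 and 4 h were the highest. Ndufs7 ended at 89.0% of untreated (82.5 to 95.8), the only core subunit below 100% at 6 h, with a slope of −0.021 and an adjusted p of 0.484 (edgeR). Its bend passed the test with an adjusted p of 0.0466 (edgeR). The median change of the 4 Q module genes was 0.14 at 6 h on the log2 scale, beside 0.37 for the 3 N module genes.

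Accessory subunits were described by the arm they belong to. Of 9 in the matrix arm 8 had a slope above 0, against 50.5% of all genes, with a median of 0.039 log2 per h. The exception was Ndufv3, a subunit near the NADH site, at 43.7, 41.9, 40.8 and 37.7 CPM. Each treated library was below the untreated one, and the level was 86.3% of untreated (77.4 to 96.0) at 6 h, with an adjusted p of 0.164 for the slope (edgeR). Ndufa2, a thioredoxin-like subunit beside Ndufs1, was at 67.6, 74.9, 78.0 and 74.8 CPM. All 9 subunits of the proximal membrane arm had a slope above 0, against the same 50.5%, with a median of 0.056, and none passed the test. Ndufa8, which lies on the intermembrane side, was at 97.6, 114, 116 and 113 CPM. Ndufc1, a small membrane-spanning subunit, was at 28.1, 35.8, 38.9 and 38.9 CPM with an adjusted p of 0.083 (edgeR).

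The distal membrane arm held the member with the steepest gain. Of its 10 tested subunits 9 had a slope above 0, against 50.5% of all genes, and the median was 0.045 log2 per h. Ndufb6, a membrane-spanning subunit, was at 42.2 CPM untreated and at 57.6, 62.5 and 64.8 CPM after 2, 4 and 6 h, higher in each later library. It reached 154% of untreated (140 to 168), with a slope of 0.099 ± 0.027 (SE) and an adjusted p of 0.0594 (edgeR). Ndufb11 was at 61.0, 75.6, 85.3 and 83.0 CPM, with an adjusted p of 0.072 (edgeR). Ndufb8 was at 129, 152, 156 and 151 CPM. Per kb of its annotated transcript, Ndufb8 had the highest untreated level of all members at 189 CPM per kb, followed by Ndufa4 at 118.5, Ndufa2 at 118.1 and Ndufa8 at 113. A gene model on the same strand overlaps Ndufb8, and no source used here says how reads shared by both were counted.

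Ndufa4 was first assigned to complex I and later to complex IV, and it moved with the subunits. Its levels were 72.3, 101, 110 and 108 CPM, so each treated library was above the untreated one, and it ended at 150% (140 to 160). The slope was 0.093 log2 per h with an adjusted p of 0.0836, and the bend had an adjusted p of 0.0029 (edgeR). Its paralog Ndufa4l2, known as a target of the hypoxia response, had 1, 1, 4 and 1 counts in the 4 libraries and was not tested.

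**Figure D2:**
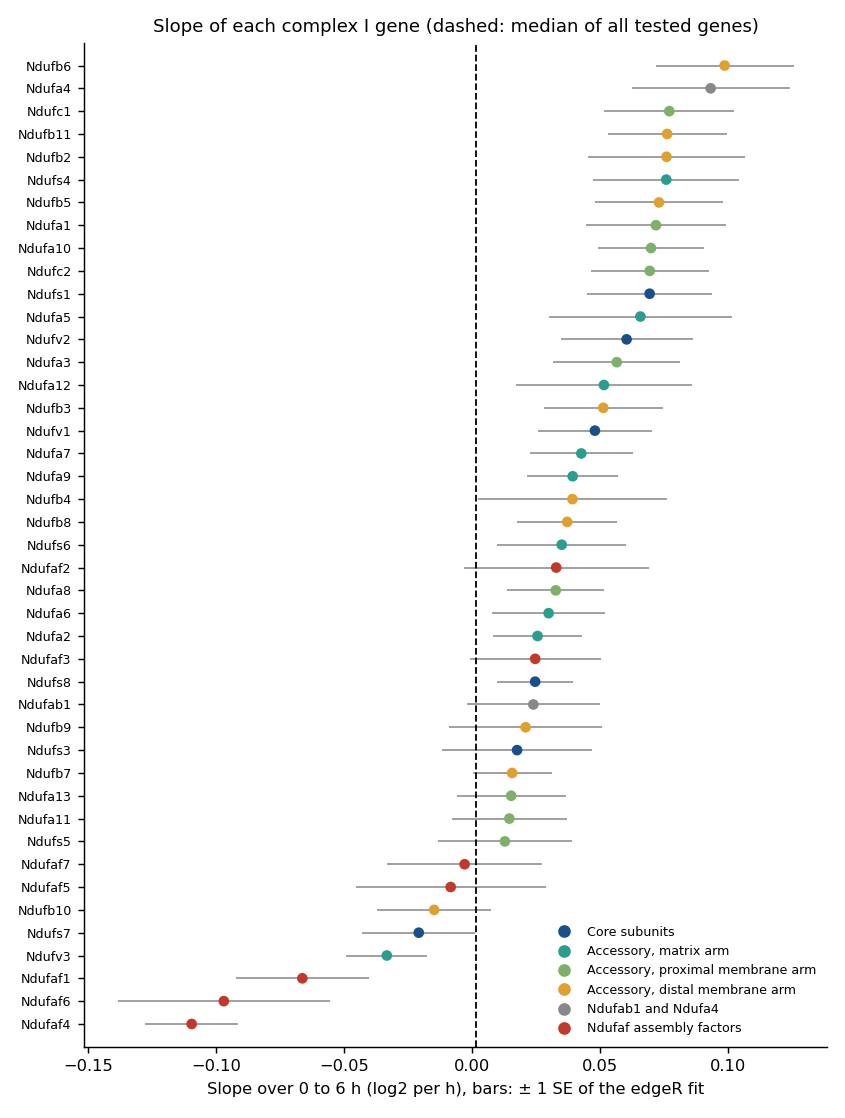
Slope of 43 of the 44 tested genes in log2 per h (x axis) with ± 1 SE of the edgeR fit, sorted and coloured by role, with the median of all tested genes dashed. Ndufb6 is highest at 0.099 and Ndufaf4 lowest at −0.11, and 5 of the 8 genes below 0 are assembly factors.

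The assembly factors had lower slopes than the subunits as a list, with a median of −0.008 log2 per h over 7 genes beside 0.043 over the 37 other tested members. Ndufaf4 forms a pair with Ndufaf3 that builds the Q module. It was at 34.9 CPM untreated and at 29.5, 25.7 and 22.0 CPM after 2, 4 and 6 h, lower in each later library. That was 84.6%, 73.8% and 63.0% of untreated, with an interval of 54.9 to 72.1 for the last. Ndufaf4 fell by 0.11 ± 0.018 log2 per h (SE), with an adjusted p of 0.0275 (edgeR, Benjamini-Hochberg). The fall missed the test when the 2 h or the 4 h library was left out, with a slope of −0.11 in both and adjusted p of 0.0532 and 0.119 (edgeR), and with scaling to total counts, with a slope of −0.087 and an adjusted p of 0.469.

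Ndufaf4 also differs from most members in its 3' UTR, the untranslated end of the mRNA. The gene lies at chr4:24898083-24905001 on the plus strand of mm10. Its 3' UTR in the GENCODE annotation has 3026 bases and holds 8 ATTTA pentamers, the core of the AU-rich elements that are known to recruit decay factors. The sense strand alone was searched and overlapping matches were counted. Among 1045 tested genes with a 3' UTR within 20% of that length, 96.7% held at least 1 ATTTA, the median number was 5 and 25.6% held at least as many as Ndufaf4. The lines below give 3 of its sites, which lie at chr4:24902116-24902144, chr4:24904050-24904078 and chr4:24904623-24904651. They are shown, with the pentamer in capitals, because they span the 3' UTR of the only member that fell, and the numbers count bases from the stop codon.
Ndufaf4 base 153: aattttttaaaaATTTAtgtatgtgtagt
Ndufaf4 base 2087: ttggggtctcacATTTAttttgaaaagtg
Ndufaf4 base 2660: tgataaatagctATTTAatacagagcttt

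The longer form TATTTAT was in the 3' UTR of 2 members, neither of which fell. It was in Ndufv2, at chr17:66078909-66078937 and, in a stretch where pentamers overlap, at chr17:66078863-66078891, and in Ndufs4 at chr13:114288692-114288720, all on the minus strand of mm10. Ndufs4 stabilises the N module, and its levels were 41.4, 56.2, 56.5 and 58.8 CPM, each treated library above the untreated one. It is named here after its values were seen. The 5' to 3' sense sequences are shown for contrast with Ndufaf4, with the pentamer in capitals.
Ndufv2 base 569: ggtaaaagcattATTTAtaaaaagaaaag
Ndufv2 base 615: ttctttagctatATTTAtttattttgata
Ndufs4 base 55: cagctgtgcactATTTAtagtccatggat
Ndufv2 held 6 ATTTA in 856 bases, and 2.45% of 1184 tested genes of like length held as many or more. A match is a description of letters and says nothing of binding.

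Ndufaf6 and Ndufaf1 were low at 6 h as well, without passing the slope test. Ndufaf6, a factor of early Q module assembly, was at 17, 18, 16 and 11.1 CPM. Only its 6 h library was far below untreated, at 65.2% (53.6 to 78.9), and its slope had an adjusted p of 0.134 and its downward bend one of 0.0325 (edgeR). Ndufaf1 belongs to the MCIA complex that builds part of the membrane arm, and was at 18.3, 18.4, 15.9 and 14.1 CPM. It ended at 77.0% of untreated (64.5 to 91.5), with an adjusted p of 0.115 (edgeR).

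The other assembly factors ended near their untreated level. Ndufaf5, which hydroxylates Ndufs7, was at 16.7, 17.8, 19.6 and 15.2 CPM, and Ndufaf7, a methyltransferase, was at 12.5, 13.3 and 13.8 CPM up to 4 h and at 96.7% of its untreated level at 6 h. In both the 4 h library was the highest and the 6 h library the lowest. Ndufaf3 was at 12.5, 13.5, 13.3 and 14.1 CPM, highest at 6 h. The difference between the slopes of Ndufaf3 and Ndufaf4 was not tested. Ndufaf2, a relative of the subunit Ndufa12, was the lowest of the 7 at 5.65, 6.03, 6.87 and 6.21 CPM. At 6 h the 4 genes stood between 91.3% (76.8 to 108) for Ndufaf5 and 113% (93.6 to 135) for Ndufaf3, and each interval held 100%.

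The share of a gene in the summed counts of all Nduf genes does not depend on how libraries are scaled. The 7 assembly factors made up 5.39% of all Nduf counts untreated (95% exact interval 5.22 to 5.56), then 4.53% (4.41 to 4.65), 4.11% (4.03 to 4.20) and 3.64% (3.43 to 3.85). These intervals cover counting error only and hold no spread between libraries. The 4 do not overlap, and the 6 h share was 0.675 times the untreated one. Without Ndufaf4 the shares were 3.79%, 3.38%, 3.16% and 2.79%, a ratio of 0.737, and each of the other 6 genes had a ratio under 1 (0.546 to 0.943). For Ndufaf2 (0.920), Ndufaf3 (0.943) and Ndufaf7 (0.809) the untreated and 6 h intervals overlapped. Ndufaf4 alone went from 1.6% to 0.843% (ratio 0.527), Ndufaf6 from 0.781% to 0.426% (0.546) and Ndufaf1 from 0.837% to 0.539% (0.644). Among subunits the shares of whole groups moved little. The N module core held 14.9%, 15.7%, 16.1% and 16.0%, the Q module core 15.7%, 15.1%, 15.1% and 14.8%, and the distal membrane arm 22.0%, 22.3%, 22.4% and 22.6%. Single subunits moved more, in both directions. Ndufs7 went from 4.00% to 2.98% (ratio 0.744) and Ndufv3 from 2.00% to 1.45% (0.722). Ndufb6 went from 1.93% to 2.49% (1.28) and Ndufa4 from 3.31% to 4.15% (1.25). In each of these genes the untreated and 6 h intervals lay apart. A ratio under 1 was therefore not particular to assembly factors. Ndufs3 (0.908), Ndufa2 (0.926) and Ndufs8 (0.934) were under 1 as well, close to Ndufaf2 and Ndufaf3. Ndufv1 (1.01), Ndufv2 (1.08) and Ndufb11 (1.14) were above 1.

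**Figure D3:**
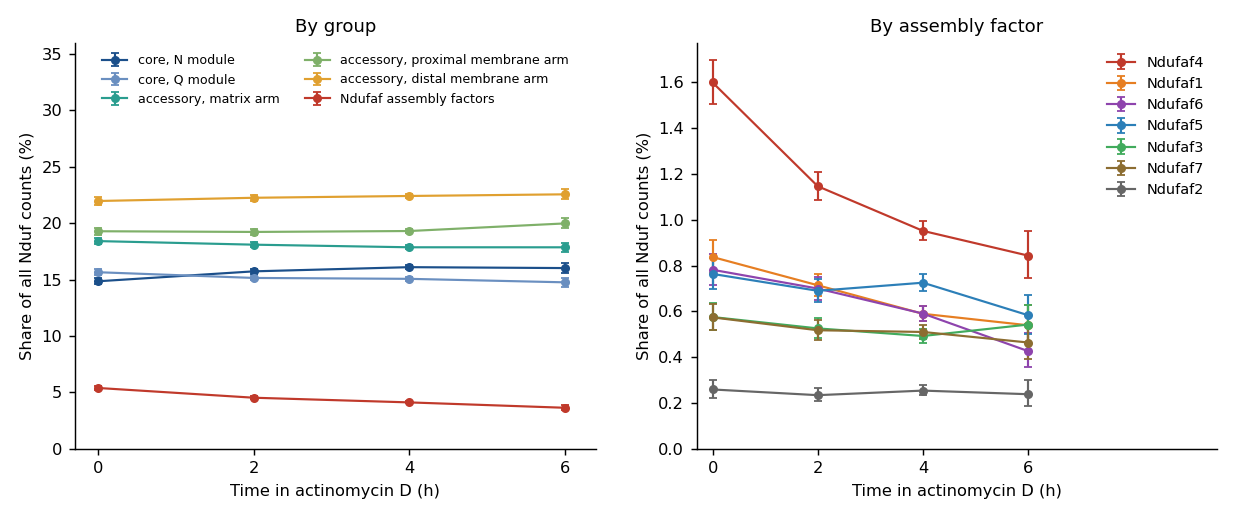
Share of all Nduf counts in percent (y axis) against hours in actinomycin D (x axis), by group (left) and by assembly factor (right), with exact 95% intervals that cover counting error only. The assembly factor line goes from 5.39% to 3.64%, and Ndufaf4 from 1.6% to 0.843%.

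The half-lives in the authors' deposited table rest on the same libraries. All 14957 half-lives there were recomputed, to within a relative difference of 1e-06, from a line through the origin on the natural log of the deposited normalized value relative to 0 h, using the 2 h and 4 h values alone. The 6 h library therefore did not enter them. In the authors' deposited table Ndufaf4 has the shortest half-life above 0 among the tested members, at 4.29 h (R2 0.996), followed by Ndufaf1 at 6.27 h, Ndufv3 at 6.80 h and Ndufa13 at 6.87 h. Ndufa13 was named after its values were seen. Ndufaf6 has 7.57 h and Ndufs7 10.1 h in the authors' deposited table. A half-life below 0, which stands for a fitted line that rises from 0 h, was given there to 11 of 44 tested members (25%), against 9.12% of all genes. One below 0 or over 20 h was given to 25 of 44 (56.8%), against 26.2% of all genes. None of the 7 assembly factors and 25 of the 37 other tested members were in that group.

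For such genes half-lives of opposite sign stood for similar courses. In the authors' deposited table Ndufv2 has −3902 h (R2 0.00023), Ndufs1 −144 h (R2 0.198) and Ndufv1 43.4 h. The normalized values behind them were 1.97 at 0 h and 1.92 at 4 h for Ndufv2. They were 3.34 at both times for Ndufs1, and 2.28 and 2.13 for Ndufv1. By TMM scaling, which did not enter the half-lives, the 3 genes stood at 135%, 138% and 129% of untreated at 4 h. With the 6 h library added to the same fit Ndufs1 came to 130 h and Ndufv2 to 64.5 h, and 4 of 44 members instead of 11 had a half-life below 0, against 9.21% of all genes. Medians were therefore taken over rates. The median deposited rate of the members corresponded to 23.0 h, that of the assembly factors to 10.7 h and that of the other members to 30.7 h, beside 8.56 h over all genes.

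Complex I mRNAs are short, and so are their 3' UTRs. All 44 tested members were matched to a GENCODE transcript, as were 9635 of the 10837 tested genes (88.9%). The median 3' UTR was 146.5 bases in members and 1026 over all genes, the median coding sequence 513 and 1386 bases, and the median exon number 4 and 9. A 3' UTR under 100 bases was annotated in 15 of 44 members (34.1%), against 4.36% of genes with a 3' UTR. ATTTA was present in 20 of 44 members (45.5%), against 67.9%, although its density of 2.11 per kb was close to the 1.83 per kb of all genes. TATTTAT was present in 4.55% of members, against 28.6%. These shares are not matched for 3' UTR length. Of genes within 20% of the 3' UTR length of Ndufv2 and of Ndufs4, 22.0% and 22.6% held TATTTAT. Of those like Ndufaf4, which has none, 51.7% did.

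Among the subunits a longer 3' UTR went with a higher slope, which was not so among the assembly factors. Across the 44 genes Spearman's rho between slope and 3' UTR length was 0.46, beside −0.05 over all tested genes. Over the 37 members other than assembly factors it was 0.62, over the 7 assembly factors −0.04, and over 39 nuclear genes of complexes II to V −0.06. Slope also went with mean level over the 44 (rho 0.36), with a rho of 0.16 over the 37, −0.82 over the 7 and 0.29 over all genes. With coding length rho was −0.36 over the 44, −0.26 over the 37 and −0.20 over all genes. All genes share the same 4 libraries, and no test was made. The 8 members with more than 500 bases had a median slope of 0.065 and the 15 with under 100 bases one of 0.016. The 20 members with ATTTA had a median slope of 0.050 and the 24 without it one of 0.034. Ndufb2, with 4012 bases and 4 ATTTA, and Ndufab1, with 2944 bases and 3, also have long 3' UTRs and had slopes of 0.076 and 0.024. Ndufb2 and Ndufab1 were named after their values were seen.

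**Figure D4:**
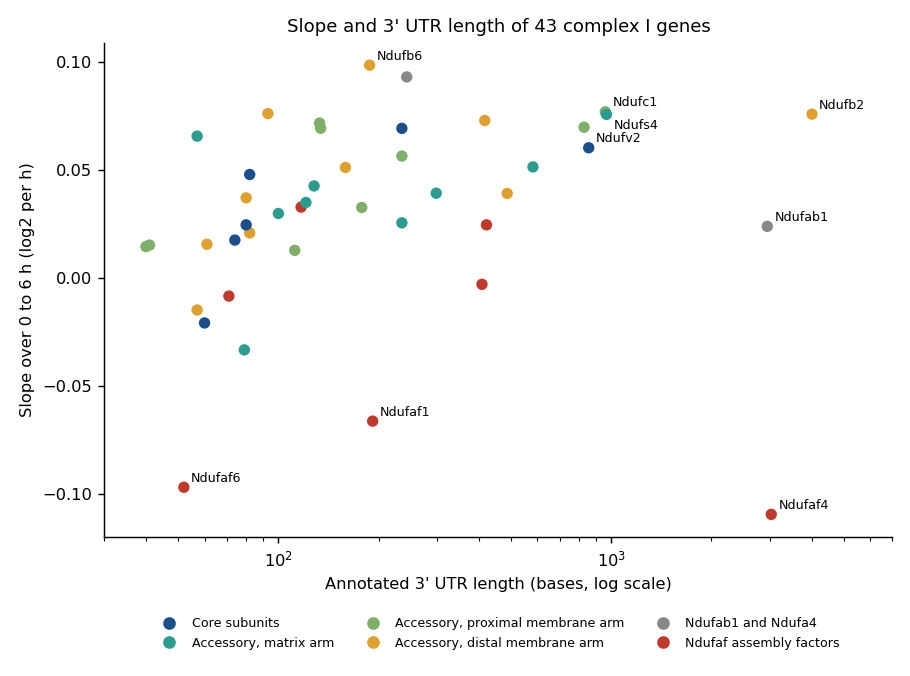
Slope in log2 per h (y axis) against annotated 3' UTR length in bases on a log axis (x axis), 1 point per gene, 43 of the 44 tested genes, coloured by role. Subunit points tend to rise from left to right, and Ndufaf4 at 3026 bases and −0.11 stands apart from Ndufb2 and Ndufab1.

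The sign of the members' median slope depends on the scaling. A change of scaling shifts all genes by about the same amount, so it cannot move the members against the rest. The median slope of the members was 0.036 with TMM, 0.035 with DESeq2 size factors, 0.057 with total counts and 0.021 with total counts less 4 abundant structural RNA genes. It was −0.022 when libraries were scaled on cytosolic ribosomal protein mRNAs and −0.051 with the divisors behind the deposited normalized values. The median over all genes moved along, from 0.023 with total counts to −0.086 with the divisors, 0.033 to 0.035 below the members' median. The gap did move with the libraries used. Fitted to 2, 4 and 6 h alone, the members' median was 0.0073, beside 0.00067 over all genes, and 27 of 44 members had a slope above 0. Fitted to 0, 2 and 4 h alone, it was 0.070, beside 0.0040 over all genes, and 39 of 44 had a slope above 0. Ndufaf4 had a slope below 0 in all 6. With ribosomal protein scaling 6 members fell (Ndufaf1, Ndufaf4, Ndufaf6, Ndufs7, Ndufb10 and Ndufv3), against 23.6% of all genes, and with the deposited divisors 13 did, against 45.8%. No member rose with either, against 1.22% and 0.664% of all genes. Ndufb10 was named after its values were seen.

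**Figure D5:**
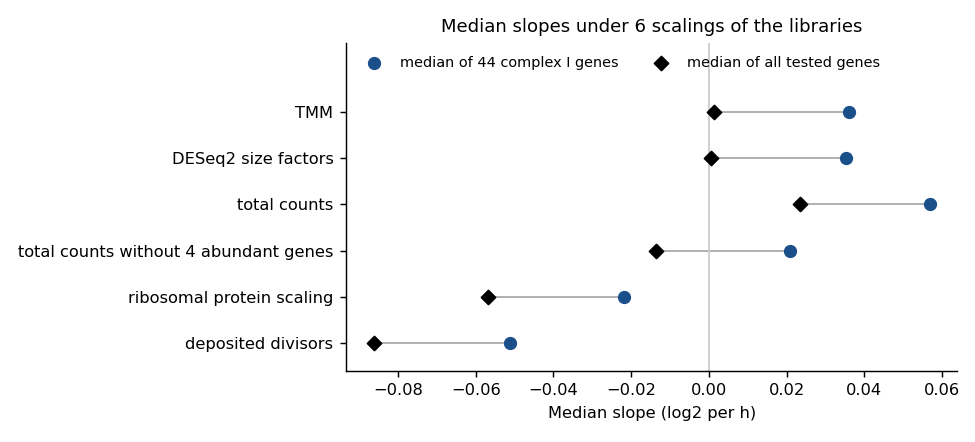
Median slope in log2 per h (x axis) of the 44 complex I genes (circles) and of all tested genes (diamonds) under 6 scalings of the libraries. Both lie below 0 in the lowest 2 rows, and a change of scaling moves both alike.

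Genes that work with the Nduf products gave a mixed picture. Of 12 assembly factors with other names 9 were in the table, and 2 of them fell, against 16.8% of all genes, and 0 rose, against 8.03%. At an unadjusted p under 0.05, 3 had a slope below 0, against 26.6% of all genes, and 1 above 0, against 20.3%. The third below 0 was Ecsit, an MCIA member named after its values were seen, with a slope of −0.043 and an adjusted p of 0.0900 (edgeR). Tmem186, a member of the MCIA complex, was at 21.0, 9.98, 7.72 and 7.03 CPM. It had the lowest slope at −0.26 with an adjusted p of 0.0388 (edgeR). Tmem70, which serves complexes I and V, had −0.13 with an adjusted p of 0.0239 (edgeR). Nubpl, which supplies iron-sulphur clusters, had the highest at 0.08. Coa1, Dmac1 and Dmac2 were not analysed here.

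The mitochondrially encoded subunits had larger changes than their nuclear partners, most of them below untreated. Of 7 listed mt-Nd genes 5 were tested, since mt-Nd3 and mt-Nd4l had 0 counts in all 4 libraries. Their median change was −1.07, −1.27 and −1.07 on the log2 scale at 2, 4 and 6 h. mt-Nd1, which lies where the arms meet, was at 825, 446, 222 and 180 CPM. It fell with a slope of −0.38 and an adjusted p of 0.0158 (edgeR). Of the 5 genes 1 fell and 0 rose, against 16.8% and 8.03% of all genes. mt-Nd6, the one encoded on the other strand, had the highest slope at 0.17 with an adjusted p of 0.096 (edgeR). The bend was upward in 4 of the 5, against 18% of all genes.

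The nuclear subunits of complexes II to V had courses like those of the complex I subunits, relative to the typical gene. Of 39 tested 2 rose and 0 fell, against 8.03% and 16.8% of all genes, and 38 had a slope above 0, against 50.5%. A downward bend was called in 22, against 10.7%. The median slope was 0.057, beside 0.043 for the Nduf genes other than assembly factors. Of 76 mitochondrial ribosomal proteins 1 rose and 17 fell, against the same 8.03% and 16.8% of all genes. Their median slope was −0.011, close to that of the assembly factors. The difference between these lists was not tested.

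Counting error limits single genes more than groups. The smallest count of a tested member was 61, and the median counting SE of a member's log2 change at 6 h was 0.077 (range 0.037 to 0.23), beside an SD of 0.28 across members. An annotated gene overlaps 22 of the 45 members, on the same strand for 6 (Ndufa10, Ndufa13, Ndufb2, Ndufb8, Ndufb9 and Ndufc2) and on the opposite strand for 18. Those 18 include Ndufs1, Ndufv2, Ndufs3, Ndufb6, Ndufb11, Ndufa2, Ndufaf2 and Ndufaf3. No source used here says whether the counting used strand, so values of these genes may hold reads of their neighbours.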

How the data were processed

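One deposited table of the whole series was used. Its raw counts per gene were used as the authors deposited them. The submitters' processing notes name STAR 2.5.3a, Subread 1.6.3 with featureCounts, and mm10. The authors' normalized signal columns equal the counts divided by 1300, 2250, 4476 and 748 at 0, 2, 4 and 6 h, and no source used here says where these divisors come from. The authors' deposited half-life and R2 columns were read as a score. Columns not matched to a sample numbered 0.

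Counts were tested with edgeR 4.0.16 in R 4.3.3 (TMM, mean CPM of at least 1, quasi-likelihood test of a slope with 2 residual degrees of freedom, Benjamini-Hochberg over 10837 genes, threshold 0.05). Bends were the quadratic term, with 1 residual degree of freedom. Changes used a prior count of 0.5. DESeq2 1.42.0, other scalings, filters and left-out libraries were alternatives. The fits were tested on simulated data. Intervals are exact at 95% and cover counting error only. Relative to untreated, effective sizes were 1.42, 2.49 and 0.402 and the divisors 1.73, 3.44 and 0.575.

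Named genes are members past the slope test, the 4 lowest and 4 highest slopes, the 4 highest untreated levels per kb, the 7 core subunits, all Ndufaf genes, Ndufa4 and Ndufa4l2. A gene that this rule takes is not reported here, though it stays in the counts and medians. Of non-members, the lowest and highest slope of 2 lists, and genes past the test in them, are named. Members and lists were chosen with earlier results of these data known. 3' UTRs are those of 1 basic GENCODE transcript per gene, the principal isoform or else the longest. Coordinates are 1-based.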

Additional observations from a re-analysis of the deposited data

How the results depend on the processing

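The call of Ndufaf4 and the sign of most slopes rest on 4 libraries and on the scaling, so directions hold relative to the typical gene only. The median slope of all genes was −0.057 log2 per h with ribosomal protein scaling and −0.086 with the deposited divisors. Falls numbered 0 with total counts, 6 with ribosomal protein scaling and 13 with the divisors, against 12.2%, 23.6% and 45.8% of all genes. Rises numbered 1 (Ndufb6) without a filter, against 4.96% of all genes, and 8 with DESeq2's Wald test, against 14.1%. Genes with a bend numbered 37, 2 and 1 under total counts, ribosomal protein scaling and the divisors, against 50.3%, 31.9% and 29.4% of all genes. The median 6 h change of 0.22 became 0.39, −0.13 and −0.30 in the same order. Leaving out each library in turn gave 0 to 10 rises and 0 to 2 falls. Without the 6 h library 10 members rose, against 11.6% of all genes, and without the 2 h library Ndufb6 and Ndufa4 did, against 4.02%. Without the untreated library Ndufaf4 and Ndufaf6 fell, against 14.9%, and without the 2 h or the 4 h library 0 did, against 18.2% and 3.15%. Members with a half-life below 0 numbered 4 with the 6 h library added, and the assembly factor ratio was 0.737 without Ndufaf4. Both were added after seeing the data.

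Slopes of named genes that changed sign, in log2 per h, were as follows. With total counts Ndufaf5 had 0.015 and Ndufaf7 0.020. With ribosomal protein scaling Ndufa2 had −0.032, Ndufa8 −0.025, Ndufaf2 −0.026, Ndufaf3 −0.033, Ndufb8 −0.020, Ndufs3 −0.040, Ndufs8 −0.033 and Ndufv1 −0.010. With the divisors Ndufa2 had −0.062, Ndufa8 −0.054, Ndufaf2 −0.056, Ndufaf3 −0.063, Ndufb11 −0.011, Ndufb8 −0.050, Ndufc1 −0.010, Ndufs1 −0.018, Ndufs3 −0.070, Ndufs8 −0.063, Ndufv1 −0.040 and Ndufv2 −0.027. With each library left out in turn the range was −0.0040 to 0.063 for Ndufa8, −0.0018 to 0.070 for Ndufb8, −0.041 to 0.067 for Ndufs3, −0.045 to 0.061 for Ndufaf5, −0.030 to 0.036 for Ndufaf7 and −0.048 to 0.024 for Ndufs7, lowest without the untreated and highest without the 6 h library. With DESeq2 size factors and with total counts less 4 abundant genes all 21 named slopes kept their sign and their side of the threshold. The cause of these changes beyond the shift of the scaling was not tested. Bends were not run with libraries left out, and no 6 h change exists without the 0 or 6 h library. No paired analysis was possible because each time has 1 library.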
